A study of Bos taurus with 90 samples.

Results

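The miRNAs described here are those best known from cells of the immune system, namely miR-146a, miR-146b, miR-155, miR-223, miR-150 and miR-142-5p. They were chosen by name, and all 6 of them were among the 388 miRNAs listed in the small RNA libraries of dairy cow tissues. Each was listed in all 5 tissues and passed the filter on low values in each. The libraries came from mid-lactation Chinese Holstein cows fed alfalfa hay, corn stover or rice straw as forage, with no other treatment and no genetic change in any group, and the labels give no age. For every diet there were 6 samples each of rumen epithelium, duodenum epithelium, jejunum epithelium, liver and mammary gland, so that 90 samples came from 18 cows. Alfalfa hay is the higher-quality forage, while corn stover and rice straw are crop residues, and the series is concerned with how low-quality forage is used.

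A miRNA is a short RNA that guides a silencing complex to matching mRNAs and lowers their output. MiR-142, which gives miR-142-5p and miR-142-3p from the arms of a single hairpin, is made in nearly all cells of the blood lineage, miR-150 is abundant in resting mature lymphocytes, and miR-223 is abundant in neutrophils and other myeloid cells. MiR-155 is induced when lymphocytes and macrophages are activated, whereas miR-146a and miR-146b are induced through NF-kB and repress adaptors of the same pathway such as TRAF6 and IRAK1, which closes a feedback loop. The rumen wall carries a stratified epithelium, while the small intestinal mucosa normally holds many lymphocytes and phagocytes within and below its single-layered epithelium.

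Values are CPM, that is, reads of a miRNA per 1000000 reads assigned to annotated miRNAs in the same library. The number of assigned reads, read from the smallest step between CPM values, ranged from 937556 to 15621501 per library, and 3 reads were worth 0.192 to 3.20 CPM, which was below every value of these miRNAs. These totals cover counting error only. The tissue labels were checked against known markers. The hepatocyte miRNA miR-122 averaged 11021 ± 1144 CPM (SD, n = 18) in liver and was otherwise listed in mammary gland alone, at 7.88 ± 14.4 CPM (SD, n = 18). MiR-205, of stratified epithelium, averaged 33692 ± 7808 CPM (SD, n = 18) in rumen, and miR-192, of intestinal epithelium and liver, averaged 256562 ± 33728 CPM in duodenal and 193633 ± 38464 CPM in jejunal samples (SD, n = 18 each). The samples labelled epithelium also held the smooth muscle miRNAs miR-143 and miR-145, with sums of 105624 to 296908 CPM over the 3 gut tissues, so they were not epithelium alone. A liver library stood apart by these markers. Liver alfalfa hay replicate 2 held 1525 CPM of miR-205, against 0 to 13.0 CPM in the other 17 liver libraries, and liver results are therefore also given without it. Jejunum corn stover replicates 1, 2 and 6 differed slightly in another way. Their listed CPM summed to 999719, 999560 and 999779, against 999894 or more in every other library.

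**Figure D1:**
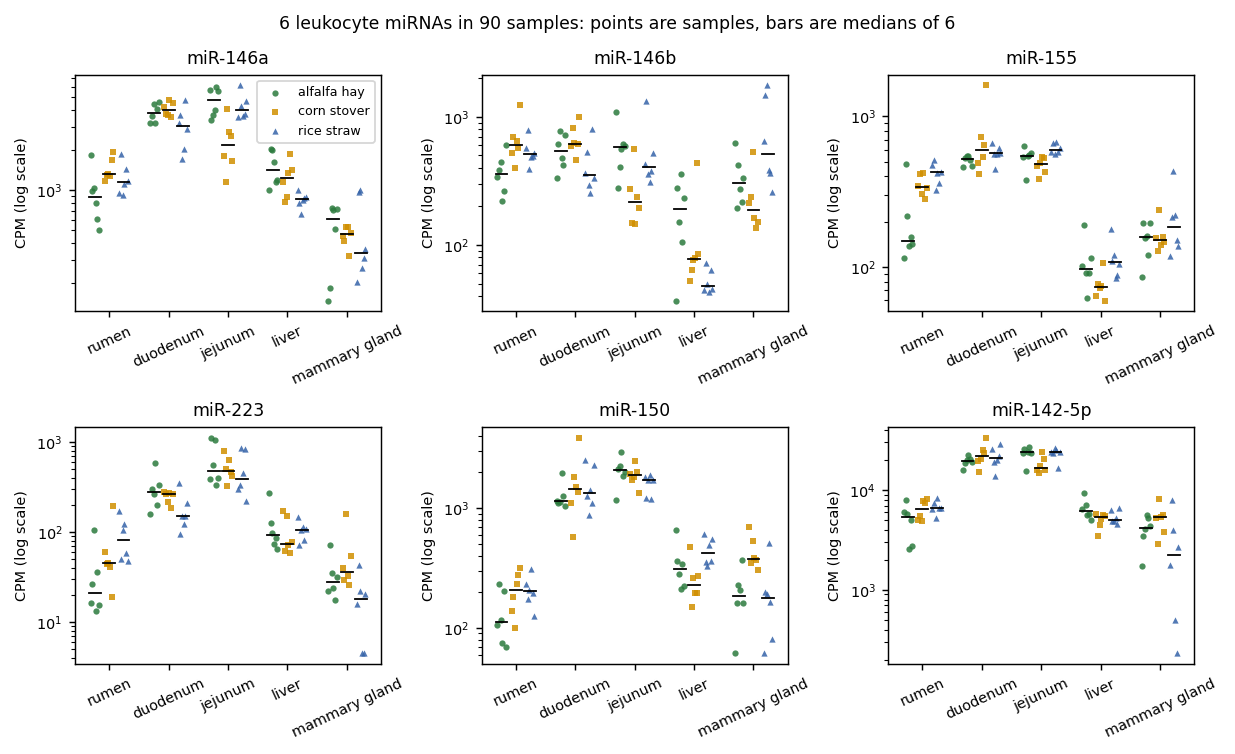
Levels of the 6 miRNAs in every library, with 1 panel per miRNA, tissues along the horizontal axis and CPM on a logarithmic vertical axis. Points are single samples coloured by diet and bars are medians of 6 samples; miR-142-5p is the most abundant in every tissue on average, with means of 4044 to 21529 CPM, and miR-223 the least abundant in all but jejunum and liver.

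The 6 miRNAs together were most abundant in the small intestine. Their summed level in duodenum averaged 27945 ± 6157 CPM, and that in jejunum 28746 ± 5520 CPM (SD, n = 18 each). It was 8415 ± 2243 CPM in rumen, 7545 ± 1707 CPM in liver and 5495 ± 2604 CPM in mammary gland (SD, n = 18 each). Between 68.7% and 76.3% of the sum in a tissue was miR-142-5p. A list of 18 other miRNAs, labelled other leukocyte miRNAs and used below beside the members, did not share this order. How particular these miRNAs are to leukocytes in these tissues was not tested. A sum of CPM follows its most abundant miRNAs. Neither the sum nor single values of the list are therefore read as leukocyte content. The summed level of the list had a median of 103758 CPM in rumen, 65542 CPM in duodenum and 69850 CPM in jejunum. In liver the median was 43255 CPM and in mammary gland 71028 CPM. In bulk tissue a difference in the number of cells of a type and a difference in the RNA of each cell cannot be told apart. In the tests between tissues the samples of a cow were treated as independent.

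MiR-142-5p, the general marker of blood-lineage cells, ranged from 13726 to 33547 CPM in duodenum, with a median of 20244 CPM, and from 14788 to 26781 CPM in jejunum, with a median of 23594 CPM. In rumen it ranged from 2554 to 8262 CPM with a median of 6274 CPM, so that every rumen sample lay below every sample of both intestinal tissues. The liver range was 3503 to 9457 CPM with a median of 5555 CPM, and the mammary gland range was 234 to 8086 CPM with a median of 3985 CPM. By its mean it ranked 8 of 338 listed miRNAs in duodenum, 10 of 337 in jejunum, 22 of 330 in liver, 25 of 340 in rumen and 31 of 328 in mammary gland. Its log2 fold change was 1.84 ± 0.12 (SE) in duodenum against rumen (limma adjusted p = 8.5e-16), and jejunum and duodenum were not distinguishable (log2 fold change 0.02, 95% interval -0.18 to 0.21, limma adjusted p = 0.89). Rumen and liver did not differ beyond their spread (log2 fold change -0.07 in liver against rumen, limma adjusted p = 0.57), and mammary gland was lower than liver by a log2 fold change of -0.82 (limma adjusted p = 0.0073). The lowest 4 mammary gland values came from its 4 libraries of under 3000000 reads. The tests between tissues were not repeated without these libraries, for this or any other member. The -5p arm made up most of the reads of the hairpin, between 93.1% and 94.2% of both arms on average in rumen, duodenum and jejunum.

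MiR-150, the miRNA of mature lymphocytes, showed the widest step between rumen and the small intestine. It ranged from 69.5 to 315 CPM in rumen (median 189), from 576 to 3897 CPM in duodenum (median 1260) and from 1182 to 2953 CPM in jejunum (median 1835). No rumen sample reached the lowest intestinal sample. The same held for miR-142-5p, and groups without overlap were found for 21.3% of 314 miRNAs between duodenum and rumen and for 21.7% of 313 between jejunum and rumen. Mean levels were 8.32-fold higher in duodenum than in rumen (log2 fold change 3.04 ± 0.20 SE, limma adjusted p = 3.2e-16) and 10.1-fold higher in jejunum than in rumen (log2 fold change 3.42 ± 0.16 SE, limma adjusted p = 1e-20). Liver followed, with 150 to 654 CPM and a median of 336 CPM, and then mammary gland, with 61.9 to 699 CPM and a median of 219 CPM. Mammary gland was lower than liver by a log2 fold change of -0.51 (limma adjusted p = 0.045), a call that was lost without the liver library holding miR-205 (-0.49, limma adjusted p = 0.055), and mammary gland and rumen did not differ beyond their spread on the deposited CPM (0.44 in mammary gland against rumen, limma adjusted p = 0.083). With upper-quartile scaling (0.83, limma adjusted p = 0.00019) and trimmed-mean (TMM) scaling (0.65, limma adjusted p = 0.0037) miR-150 was higher in mammary gland than in rumen.

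MiR-223, of myeloid cells, was the only member with a difference between the parts of the small intestine over all diets on the deposited CPM. It ranged from 220 to 1119 CPM in jejunum (median 456), from 96.4 to 579 CPM in duodenum (median 241), from 58.2 to 272 CPM in liver (median 92.2), from 13.3 to 196 CPM in rumen (median 46.7) and from 4.57 to 158 CPM in mammary gland (median 27.7). Each neighbouring step of this order passed the test. The lowest jejunum sample lay above the highest rumen and mammary gland samples (without overlap for 14.7% of 312 miRNAs between mammary gland and jejunum), and the log2 fold change in mammary gland against jejunum, -4.16 ± 0.26 (SE), was the largest of any member in the 10 pairs of tissues. The step from rumen to mammary gland (-0.82, limma adjusted p = 0.015) was lost with upper-quartile scaling (limma adjusted p = 0.19) and with TMM scaling (limma adjusted p = 0.061).

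MiR-155, of activated lymphocytes and macrophages, was similar in duodenum (415 to 1609 CPM, median 543) and jejunum (376 to 675 CPM, median 549), with a log2 fold change of -0.11 in jejunum against duodenum (limma adjusted p = 0.49). Rumen had 114 to 513 CPM with a median of 341 CPM, mammary gland 85.3 to 431 CPM with a median of 156 CPM, and liver 59.8 to 191 CPM with a median of 91.5 CPM. Every liver sample was below every sample of duodenum and jejunum, where 37.6% of 306 and 29.3% of 307 miRNAs did not overlap. In contrast to miR-150 and miR-223, this miRNA was lower in liver than in rumen (log2 fold change -1.64 ± 0.15 SE, limma adjusted p = 1e-12) and lower in liver than in mammary gland (0.79 in mammary gland against liver, limma adjusted p = 6.6e-05).

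The paralogs of miR-146 had different tissue patterns. MiR-146a ranged from 1724 to 4774 CPM in duodenum (median 3669) and from 1163 to 6167 CPM in jejunum (median 3723), and was lower in rumen (505 to 1955 CPM, median 1181), in liver (668 to 2049 CPM, median 1081) and in mammary gland (148 to 1000 CPM, median 467). Duodenum and jejunum did not differ beyond their spread, nor did rumen and liver on the deposited CPM (log2 fold change -0.02 in liver against rumen, limma adjusted p = 0.90). With upper-quartile scaling, which moved the median of all miRNAs in that comparison from -0.43 to 0.23, liver was above rumen for miR-146a (0.72, limma adjusted p = 1.1e-05) and for miR-142-5p (0.67, limma adjusted p = 4.9e-07), and with TMM scaling miR-142-5p passed as well (0.23, limma adjusted p = 0.043).

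MiR-146b differed less over the gut and mammary gland, with medians of 512 CPM in rumen, 566 CPM in duodenum, 391 CPM in jejunum and 303 CPM in mammary gland. Rumen did not differ from duodenum (log2 fold change 0.07 in duodenum against rumen, limma adjusted p = 0.68) or from jejunum (-0.33 in jejunum against rumen, limma adjusted p = 0.12) beyond the spread. Mammary gland was lower than duodenum (-0.58, limma adjusted p = 0.019) and rumen (-0.50, limma adjusted p = 0.041), but neither call of miR-146b held with upper-quartile scaling (limma adjusted p = 0.099 and 0.70), nor the second with TMM scaling (limma adjusted p = 0.27). Liver stood below all 4 others, at 36.8 to 439 CPM with a median of 74.5 CPM (log2 fold change -2.41 ± 0.24 SE against rumen, limma adjusted p = 1.5e-11, and -2.47 without the liver library holding miR-205). MiR-146a made up 91.7% ± 4.7 of the reads of both paralogs in liver but 69.5% ± 8.2 of those in rumen and 55.2% ± 17.8 of those in mammary gland (SD, n = 18 each). The mature forms of miR-146a and miR-146b are close to identical and the alignment allowed mismatches, so reads of one could have been assigned to the other which makes the value of each alone uncertain.

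These counts were read against the whole table, in which most miRNAs differed between tissues. Higher levels in duodenum than in rumen were called for 5 of 6 members, against 30.9% of 314 miRNAs tested, and in jejunum than in rumen likewise for 5 of 6, against 31.9% of 313. The exception in both was miR-146b. Liver against rumen had 2 members higher, against 29.3% of 304, and 2 lower, against 55.3%. All 6 members were lower in liver than in duodenum (153 of 306 miRNAs, 50%, were lower) and than in jejunum (52.1% of 307). In mammary gland 6 were lower than in duodenum (38.6% of 311), 5 lower than in jejunum (38.1% of 312) and 5 lower than in rumen (46.5% of 303), which became 2 (miR-146a and miR-155) with upper-quartile scaling and 3 (also miR-142-5p) with TMM scaling, where the median of all miRNAs moved from -0.33 to 0.01 and -0.16. Against liver 4 were lower (30.4% of 306) and 2 higher (36.3%). Between jejunum and duodenum 1 of 6 was higher, against 16.3% of 331.

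The diets were compared first in rumen, the organ in which forage is fermented. MiR-155 was the 1 member of 6 that differed over the 3 diets (limma F test, adjusted p = 0.043), against 1.49% of 335 miRNAs. An unadjusted p under 0.05 in this test was found for 4 of 6 members and for 69 of 335 miRNAs. On alfalfa hay miR-155 ranged from 114 to 484 CPM with a median of 149 CPM. On corn stover it ranged from 285 to 419 CPM with a median of 341 CPM, and on rice straw from 324 to 513 CPM with a median of 426 CPM. Of the alfalfa hay samples 5 lay at or below 220 CPM, below every sample of the other diets, and replicate 2, at 484 CPM, lay among the rice straw samples. Rice straw exceeded alfalfa hay by a log2 fold change of 1.18 ± 0.26 (SE; limma adjusted p = 0.022), a ratio of means of 2.01, against 2.69% of 335 miRNAs called in this contrast and 1.19% called higher.

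This rumen call rested on few samples. With upper-quartile and TMM scaling the F test of miR-155 did not pass (limma adjusted p = 0.059 and 0.056). The F test of miR-155 no longer passed when any of 15 of the 18 libraries was left out (limma adjusted p = 0.054 to 0.14), and passed without alfalfa hay replicate 2, alfalfa hay replicate 3 or corn stover replicate 5. The contrast of rice straw with alfalfa hay no longer passed without rice straw replicate 4 (limma adjusted p = 0.064), alfalfa hay replicate 1 (0.063), replicate 5 (0.058) or replicate 6 (0.063), with a log2 fold change between 1.04 and 1.17 in these fits.

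**Figure D2:**
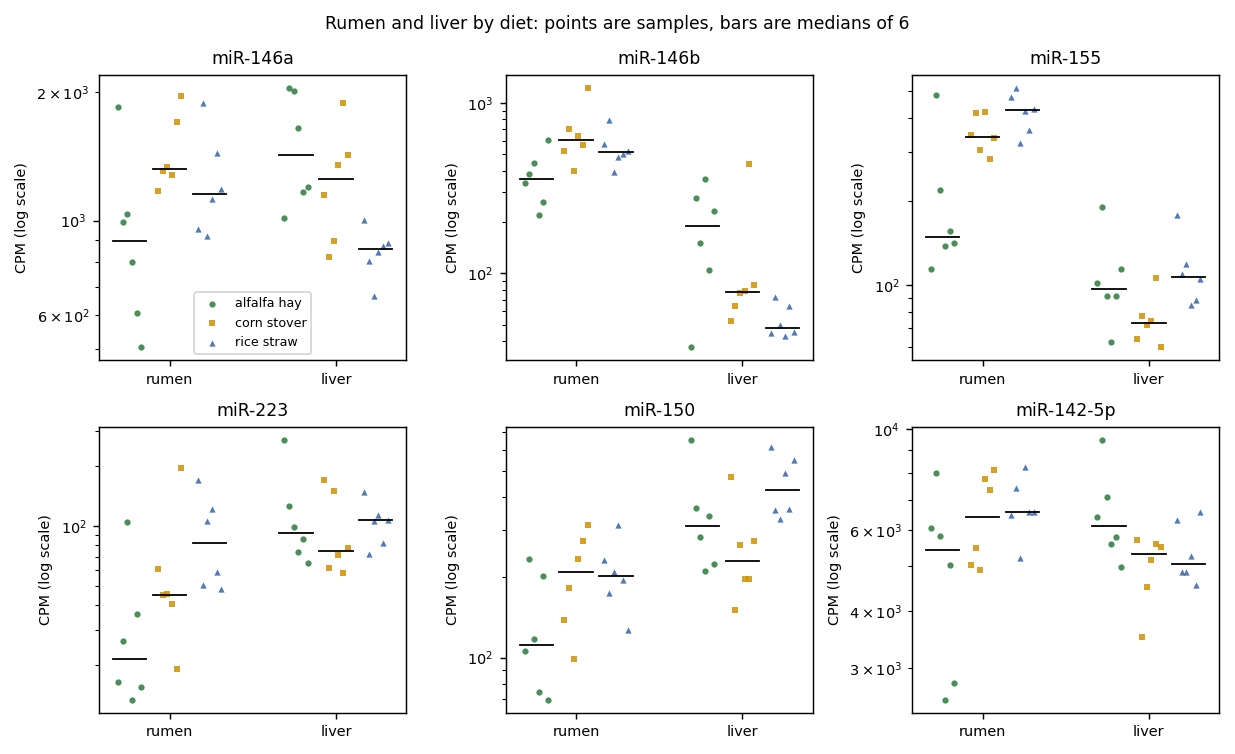
Levels of the 6 miRNAs by diet in rumen and in liver, in CPM on a logarithmic vertical axis, with a point for each of 6 samples per diet and a bar at their median. In rumen the alfalfa hay medians are the lowest of the 3 diets for all 6 miRNAs, and in liver miR-146a on rice straw, at 668 to 1004 CPM, lies below all alfalfa hay samples.

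The other members pointed the same way in rumen without passing the test. MiR-223 had 13.3 to 105 CPM on alfalfa hay with a median of 21.3 CPM, and 48.2 to 171 CPM on rice straw with a median of 82.2 CPM, with a log2 fold change of 1.60 ± 0.51 (SE; limma adjusted p = 0.076). For miR-150 the value was 0.73 (limma adjusted p = 0.15), for miR-146b 0.58 (0.16), for miR-142-5p 0.53 (0.16) and for miR-146a 0.46 (0.26). All 6 rice straw samples lay above the alfalfa hay mean of log2 values for each of the 6 members. The share of all miRNAs for which this held was not computed. The members were measured in the same libraries, so they do not count as 6 separate results. The median log2 fold change of the members was 0.66, beside 0.18 for all miRNAs tested, of which 66.6% were above 0. Corn stover against alfalfa hay shares the alfalfa hay samples with this contrast, and its members were also all above 0, with a median of 0.77 beside 0.12 for all miRNAs, of which 64.5% were above 0, and with miR-155 at 0.92 (limma adjusted p = 0.11) and miR-146b at 0.84 (limma adjusted p = 0.11). No member and 0 of 335 miRNAs (0.0%) passed in it by limma, 56 having an unadjusted p under 0.05, and in rice straw against corn stover 0 of 335 (0.0%) passed, 12 having an unadjusted p under 0.05.

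The list of other leukocyte miRNAs, whose restriction to leukocytes was not tested, was looked at beside the members in rumen. Of 18 such miRNAs on the list, 0 passed for rice straw against alfalfa hay, 14 were above 0 and their median was 0.26. MiR-142-3p, from the other arm of the miR-142 hairpin, had a log2 fold change of 0.89 (limma adjusted p = 0.070). Of the markers of other cell types, the epithelial miR-141 was lower on rice straw (-0.77, limma adjusted p = 0.048) as 1 of 5 in its list, whose sum ranged from 16901 to 35851 CPM on alfalfa hay and from 12824 to 19635 CPM on rice straw. Over all miRNAs 1.49% of 335 were called lower in this contrast. None of the 3 red-cell, 2 endothelial or 2 smooth muscle miRNAs passed. The summed stratified epithelium miRNAs had medians of 43342 CPM on alfalfa hay, 34726 CPM on corn stover and 34084 CPM on rice straw. Their ranges overlapped, at 25814 to 54759 CPM on alfalfa hay and 29368 to 41880 CPM on rice straw. The part of the cell makeup in the miR-155 difference was not tested.

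In liver no difference between diets passed for any member. By limma 0 of 326 miRNAs (0.0%) passed the F test over the 3 diets or any of the 3 contrasts, with 17 at an unadjusted p under 0.05 in the F test and 10 to 28 in the contrasts, and 3 members, miR-146a, miR-146b and miR-150, were among those 17. MiR-146a on rice straw ranged from 668 to 1004 CPM with a median of 858 CPM, on corn stover from 823 to 1886 CPM with a median of 1249 CPM, and on alfalfa hay from 1013 to 2049 CPM with a median of 1422 CPM. The rice straw and alfalfa hay samples did not overlap, which held for 0.613% of 326 miRNAs, and the log2 fold change was -0.80 ± 0.20 (SE; limma adjusted p = 0.30).

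MiR-146b in liver was also low on rice straw, at 42.7 to 72.4 CPM with a median of 47.7 CPM, against 36.8 to 359 CPM with a median of 191 CPM on alfalfa hay (log2 fold change -1.55 ± 0.49 SE, limma adjusted p = 0.61). Its alfalfa hay samples spanned the whole rice straw range. MiR-150, in contrast, was higher on rice straw (332 to 613 CPM, median 426) than on corn stover (150 to 474 CPM, median 230) by a log2 fold change of 0.86 ± 0.28 (SE; limma adjusted p = 0.38). Within the liver contrasts the members' log2 fold changes lay between -1.55 and 0.86, with adjusted p-values from 0.30 to 0.97, and leaving out any 1 of the 18 libraries, the one with miR-205 included, gave 0 calls.

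Whether the diet differences of rumen and liver differed from each other was tested by their interaction. It passed for 0 of 6 members (limma adjusted p = 0.087 to 0.30), against 0.987% of 304 miRNAs. An unadjusted p under 0.05 for the interaction was found for 5 of 6 members and for 46 of 304 miRNAs. Leaving out the liver library with miR-205 gave 0 members as well, while with upper-quartile scaling miR-155 passed (limma adjusted p = 0.040). The contrast of rice straw with alfalfa hay was 0.46 in rumen and -0.80 in liver for miR-146a, and 0.58 in rumen and -1.55 in liver for miR-146b, with none of these 4 values past the test.

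**Figure D3:**
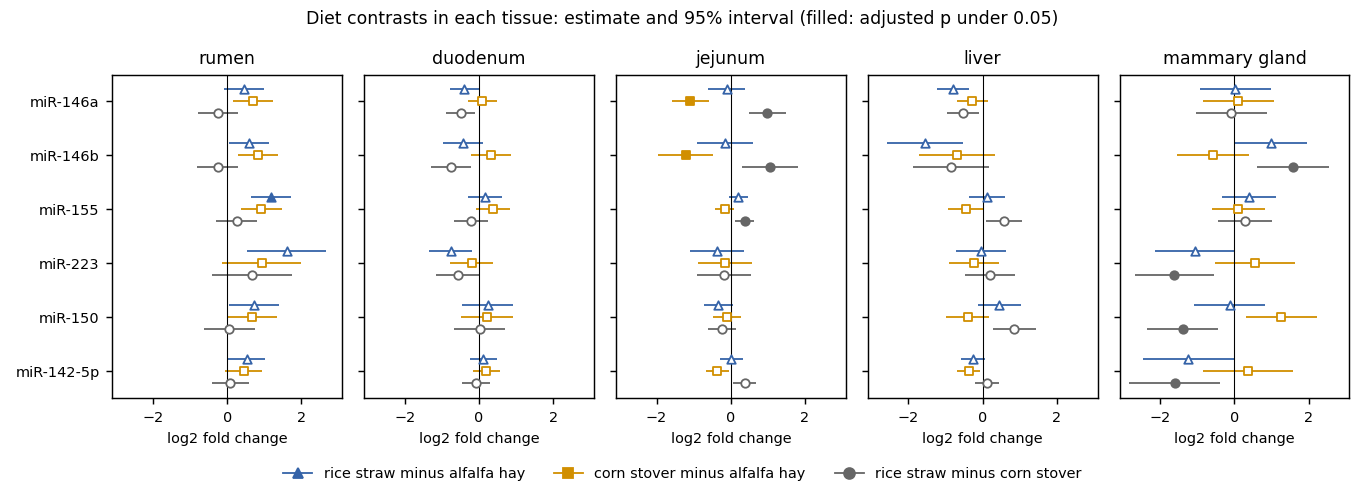
Log2 fold changes of the 6 miRNAs for the 3 diet contrasts in the 5 tissues, on the scale log2(CPM + 1), with bars for 95% intervals and filled points where the limma adjusted p is under 0.05. Filled points are found for miR-155 in rumen, for miR-146a, miR-146b and miR-155 in jejunum and for 4 miRNAs in mammary gland. Duodenum and liver have no filled point.

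In jejunum both miR-146 paralogs were low on corn stover. MiR-146a ranged from 3390 to 5954 CPM on alfalfa hay (median 4791), from 1163 to 4109 CPM on corn stover (median 2184) and from 3570 to 6167 CPM on rice straw (median 4021). Of the 6 corn stover samples 5 lay below every sample of the other diets, and replicate 3, at 4109 CPM, lay within their ranges. The log2 fold change was -1.09 ± 0.24 (SE; limma adjusted p = 0.0025) for corn stover against alfalfa hay, a ratio of means of 0.50, and 0.98 ± 0.24 (SE; limma adjusted p = 0.0047) for rice straw against corn stover.

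MiR-146b moved in parallel in jejunum, with 277 to 1084 CPM on alfalfa hay (median 578), 146 to 557 CPM on corn stover (median 216) and 312 to 1328 CPM on rice straw (median 403). The highest corn stover sample was again replicate 3. Corn stover was lower than alfalfa hay by a log2 fold change of -1.22 ± 0.36 (SE; limma adjusted p = 0.018), and rice straw was higher than corn stover by 1.05 ± 0.36 (SE; limma adjusted p = 0.034). MiR-146a made up 89.2% ± 3.0, 89.9% ± 2.9 and 89.5% ± 3.7 (SD, n = 6 each) of the reads of both paralogs on alfalfa hay, corn stover and rice straw, so their proportion was nearly the same on the 3 diets.

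In jejunum many other miRNAs also differed between diets. The F test called 2 of 6 members (miR-146a, limma adjusted p = 0.0029, and miR-146b, 0.029) against 23.8% of 336 miRNAs. Corn stover against alfalfa hay called 2 members, both lower, against 14.0% of 336 lower, and rice straw against corn stover called 3, all higher, against 19.3% higher. The third was miR-155, at 560 to 675 CPM on rice straw (median 599) and 386 to 542 CPM on corn stover (median 482), with a log2 fold change of 0.38 ± 0.12 (SE; limma adjusted p = 0.028). Its groups did not overlap, as for 13.4% of 336 miRNAs in this contrast. Rice straw against alfalfa hay called 0 of 336 by limma (0.0%, 18 at an unadjusted p under 0.05). MiR-142-5p (-0.36 for corn stover against alfalfa hay, limma adjusted p = 0.081), miR-150 (-0.10, 0.70) and miR-223 (-0.17, 0.72) did not pass.

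The calls of miR-146a in jejunum remained past the threshold without any 1 library. Jejunum corn stover replicates 1, 2 and 6, whose CPM totals stood apart, were not left out together. How the calls depend on these libraries as a group was therefore not tested, here or in the comparison with duodenum below. The F test of miR-146b was lost without corn stover replicate 2 (limma adjusted p = 0.081), 4 (0.066) or 6 (0.070), and its contrast of corn stover with alfalfa hay without alfalfa hay replicate 1 (0.054). Rice straw against corn stover was lost for miR-146b without rice straw replicate 2 (limma adjusted p = 0.086) or 6 (0.055) or corn stover replicate 2 (0.079), 4 (0.065) or 6 (0.069), and for miR-155 without rice straw replicate 2 (0.061) or 4 (0.057) or corn stover replicate 2 (0.068) or 6 (0.063). With TMM scaling, in which the median of all miRNAs moved from -0.17 to -0.01 for corn stover against alfalfa hay, miR-146b (-1.03, limma adjusted p = 0.054) no longer passed there, nor for rice straw against corn stover (0.86, limma adjusted p = 0.099, and 0.066 with upper-quartile scaling), nor in the F test (0.094, and 0.060 with upper-quartile scaling), and miR-155 did not pass for rice straw against corn stover (0.18, limma adjusted p = 0.081).

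Markers of other cells moved with the same diet in jejunum. The endothelial pair miR-126-3p and miR-126-5p was lower on corn stover than on alfalfa hay (-0.59, limma adjusted p = 0.017, and -0.97, limma adjusted p = 0.00078). Their sum was 8000 to 17708 CPM on corn stover, below the 18498 to 28030 CPM on alfalfa hay and the 19516 to 29441 CPM on rice straw. The smooth muscle miR-145 was lower as well (-0.75, limma adjusted p = 0.0025), while miR-143 was at 0.32 (limma adjusted p = 0.12). None of the 5 epithelial, 3 intestinal epithelial or 3 red-cell miRNAs passed. The 1 stratified epithelium miRNA listed in jejunum ranged from 8.13 to 478 CPM on corn stover. Its range was 183 to 346 CPM on alfalfa hay and 315 to 476 CPM on rice straw. Of the 18 other leukocyte miRNAs, 3 were lower on corn stover than on alfalfa hay, namely miR-125a (-0.77, limma adjusted p = 0.00084), miR-125b (-0.67, limma adjusted p = 0.0033) and miR-342 (-0.55, limma adjusted p = 0.0028), and 1 was higher, miR-92a of the miR-17-92 cluster (1.46, limma adjusted p = 1.2e-07). The median of the 18 was -0.24 beside -0.17 for all 336 miRNAs, of which 14.0% were called lower and 8.04% higher. The part of these cells in the miR-146 values was not tested, and neither was how particular the 18 are to leukocytes.

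In duodenum no diet difference was called. By limma 0 of 336 miRNAs (0.0%) passed the F test, with 36 at an unadjusted p under 0.05, 3 members among them, and each of the 3 diet contrasts also called 0 of 336 (0.0%, with 13 to 45 at an unadjusted p under 0.05). The widest member difference was that of miR-223, at 158 to 579 CPM on alfalfa hay (median 281) and 96.4 to 350 CPM on rice straw (median 150), with a log2 fold change of -0.76 ± 0.28 (SE; limma adjusted p = 0.38). MiR-146a, the member with the clearest diet difference in jejunum, was at 3186 to 4589 CPM on alfalfa hay (median 3849), 3581 to 4773 CPM on corn stover (median 3989) and 1724 to 4774 CPM on rice straw (median 3039) in duodenum. There the corn stover samples lay within the range of the other diets.

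**Figure D4:**
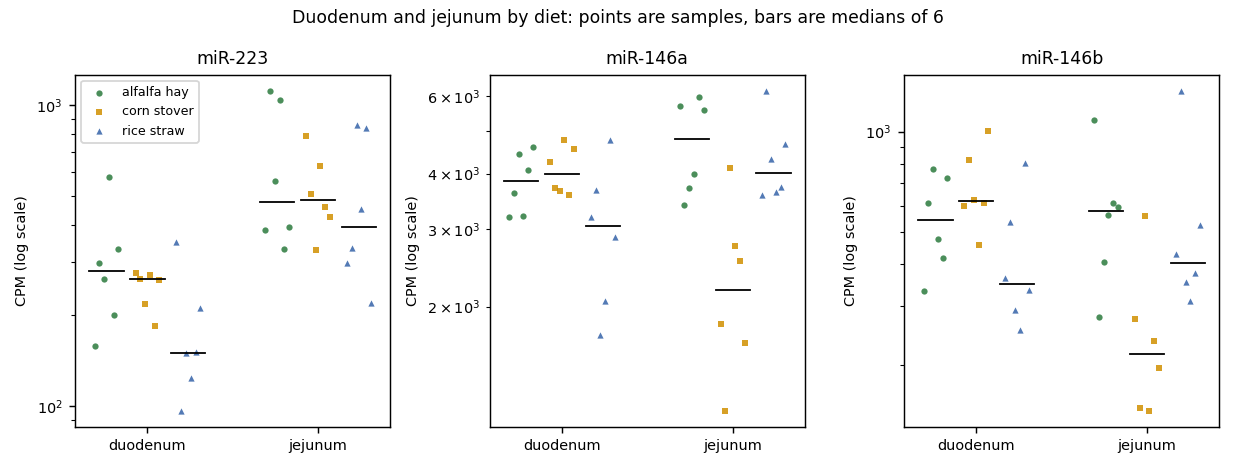
Levels of miR-223, miR-146a and miR-146b in duodenum and jejunum by diet, in CPM on a logarithmic vertical axis, with points for samples and bars for medians of 6. MiR-223 has the higher median in jejunum on every diet, whereas the miR-146 paralogs are lower in jejunum than in duodenum on corn stover only, with medians of 2184 against 3989 CPM for miR-146a.

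Jejunum and duodenum were then compared directly. MiR-223 was 2.27-fold higher in jejunum by the means (log2 fold change 1.15 ± 0.19 SE, limma adjusted p = 2.2e-05), and 17 of 18 jejunum samples lay above the duodenum mean. It was higher on each diet, with log2 fold changes of 1.01 on alfalfa hay (limma adjusted p = 0.049), 1.04 on corn stover (limma adjusted p = 0.013) and 1.41 on rice straw (limma adjusted p = 0.020). On corn stover duodenum had 184 to 276 CPM and jejunum 329 to 792 CPM without overlap, as for 16.3% of 331 miRNAs. The difference did not vary detectably with diet (interaction, limma adjusted p = 0.77). The call over all diets remained past the threshold without any 1 of the 36 libraries, whereas that on alfalfa hay was lost in 20 of 36 such fits (limma adjusted p up to 0.17) and with upper-quartile scaling (0.057), and that on rice straw without duodenum rice straw replicate 2 (0.087) or 4 (0.073) or jejunum rice straw replicate 3 (0.084) or 5 (0.11).

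For the other members the pooled difference did not pass. MiR-150 had a log2 fold change of 0.38 with a 95% interval of 0.04 to 0.71 (limma adjusted p = 0.082, and 0.39 with limma adjusted p = 0.039 with TMM scaling), miR-146b of -0.40 with an interval of -0.79 to -0.02 (limma adjusted p = 0.11), and miR-146a of -0.03 with an interval of -0.29 to 0.24 (limma adjusted p = 0.89). For miR-146a and miR-146b the difference between jejunum and duodenum depended on diet, with limma adjusted p = 0.0014 and 0.010 for the interaction, 2 of 6 members against 20.5% of 331 miRNAs, and both remained past the threshold without any 1 of the 36 libraries. On corn stover miR-146a was lower in jejunum by a log2 fold change of -0.91 (limma adjusted p = 0.0015), miR-146b by -1.52 (limma adjusted p = 0.00044) and miR-155 by -0.49 (limma adjusted p = 0.032). With miR-223 these made 4 of 6 members called on corn stover, 1 higher and 3 lower, against 16.3% of 331 higher and 20.5% lower.

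On the other diets only miR-223 was called between jejunum and duodenum, 1 of 6 members against 9.37% of 331 on alfalfa hay and 1.21% on rice straw. There the difference of miR-146a was 0.27 on alfalfa hay (limma adjusted p = 0.51) and 0.56 on rice straw (limma adjusted p = 0.34). The miR-155 call on corn stover was lost without duodenum corn stover replicate 6, which had 1609 CPM, where it became -0.23 (limma adjusted p = 0.15), and also without duodenum corn stover replicate 3 (0.060) or jejunum corn stover replicate 2 (0.075) or 6 (0.063). Beside these values, 4 of 5 epithelial and 3 of 3 intestinal epithelial miRNAs were lower in jejunum over all diets, miR-143 (0.39, limma adjusted p = 0.00055) and the red-cell miR-486 (0.55, limma adjusted p = 0.0042) were higher, and neither miR-126 arm passed. Of the 18 other leukocyte miRNAs 5 were higher, among them miR-181b (0.53, limma adjusted p = 3.5e-05), miR-181a (0.39, limma adjusted p = 0.00045) and miR-92a (0.51, limma adjusted p = 5.7e-06), and 3 were lower. Over all 331 miRNAs 16.3% were called higher in jejunum and 14.5% lower. Values of miR-145 and of the other red-cell miRNAs in this comparison are not given. The part of the cell makeup in the miR-223 difference was not tested, and neither was how particular the 18 are to leukocytes.

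In mammary gland, the organ of milk secretion, no member passed the F test over diets (limma adjusted p = 0.079 to 0.98, 0 of 6 against 3.72% of 323), while miR-146b and miR-155 did with upper-quartile (0.040 for both) and TMM scaling (0.043 for both). On the deposited CPM 4 members had an unadjusted p under 0.05 in the F test, beside 101 of 323 miRNAs. By limma, rice straw and corn stover each against alfalfa hay called 0 of 323 (0.0%, 33 at an unadjusted p under 0.05 in each). Rice straw against corn stover called 1 member higher, against 1.55% of 323, and 3 lower, against 25.1%. MiR-146b was the higher one, at 257 to 1760 CPM on rice straw (median 515) against 135 to 531 CPM on corn stover (median 186), with a log2 fold change of 1.57 ± 0.47 (SE; limma adjusted p = 0.025). The groups overlapped, and all 6 rice straw samples lay above the corn stover mean.

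The 3 lower members were miR-223, miR-150 and miR-142-5p. MiR-223 had 4.57 to 43.5 CPM on rice straw and 25.7 to 158 CPM on corn stover (log2 fold change -1.62 ± 0.52 SE, limma adjusted p = 0.030). MiR-150 had 62.4 to 511 CPM on rice straw and 304 to 699 CPM on corn stover (-1.40 ± 0.46 SE, limma adjusted p = 0.033). MiR-142-5p had 234 to 7935 CPM on rice straw and 2909 to 8086 CPM on corn stover (-1.62 ± 0.59 SE, limma adjusted p = 0.048). The ratio of the highest to the lowest sample, 33.9 for miR-142-5p on rice straw, was the largest of any member in any of the 15 groups of tissue and diet. MiR-146a made up 40.8% ± 11.4 (SD, n = 6) of the reads of both paralogs on rice straw, 57.1% ± 20.4 on alfalfa hay and 67.6% ± 9.8 on corn stover (SD, n = 6 each).

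These lower calls moved with depth and scaling. The median of all miRNAs in this contrast was -0.63 on the log2 scale, and -0.01 with TMM scaling and 0.13 with upper-quartile scaling. Relative to that shift, miR-146b stayed higher (2.32 with TMM, limma adjusted p = 0.013, and 2.49 with upper-quartile scaling, 0.0093), miR-155 was called higher (1.03, 0.014, and 1.20, 0.0093, from 0.28 on the deposited CPM), and miR-146a turned from -0.08 to 0.66 and 0.84 without passing. MiR-223, miR-150 and miR-142-5p stayed below 0 without passing under either scaling.

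The 4 mammary gland libraries of under 3000000 reads were rice straw replicates 1, 4 and 5 and alfalfa hay replicate 1, with 1875290, 2624975, 1527304 and 937556 reads, and their miR-142-5p was 1769, 496, 234 and 1730 CPM, the lowest 4 values of the tissue. Without them, an alternative added after the data had been seen, rice straw against corn stover was 2.05 for miR-146b (limma adjusted p = 0.010) and -1.52 for miR-150 (limma adjusted p = 0.0060), while miR-142-5p was -0.17 (limma adjusted p = 0.73) and miR-223 -0.72 (limma adjusted p = 0.32). Leaving out single libraries lost the call of miR-142-5p in 14 of 18 fits, of miR-223 in 7, of miR-150 in 6 and of miR-146b in 2, those without corn stover replicate 4 or 6 (limma adjusted p = 0.052 in each).

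**Figure D5:**
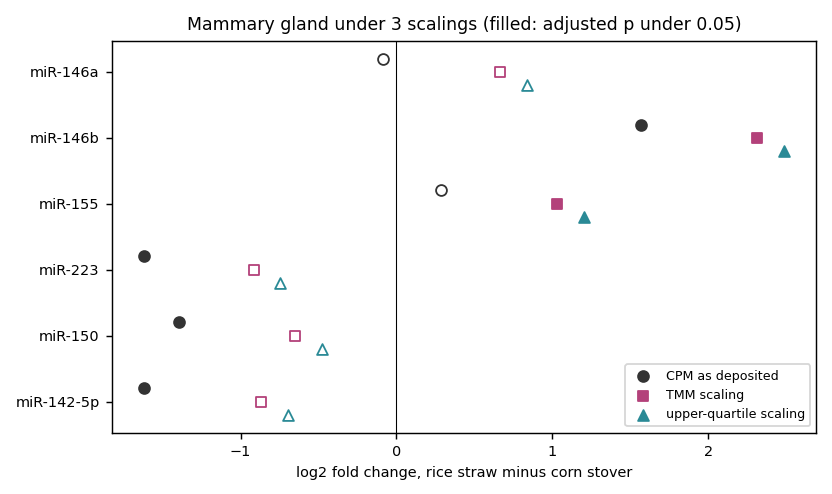
Log2 fold changes of rice straw against corn stover in mammary gland for the 6 miRNAs under the deposited CPM, TMM scaling and upper-quartile scaling, with filled points where the limma adjusted p is under 0.05. The values of miR-146b, 1.57, 2.32 and 2.49 in that order, are all above 0 and called, miR-155 is called with both added scalings, and miR-223, miR-150 and miR-142-5p are called on the deposited CPM alone.

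Markers of other cells also differed between these mammary gland groups. The smooth muscle miR-143 was higher on rice straw (0.74, limma adjusted p = 0.027), and the sum of miR-143 and miR-145 was 130010 to 228169 CPM on rice straw and 70758 to 127289 CPM on corn stover, without overlap. Of the epithelial list 3 of 5 were lower, led by miR-429 (-2.07, limma adjusted p = 0.012), and the summed list ranged from 10598 to 45143 CPM on rice straw and from 38600 to 58217 CPM on corn stover. The red-cell miR-144 (-2.01, limma adjusted p = 0.012) and miR-451 (-1.14, limma adjusted p = 0.048) and the endothelial miR-126-3p (-1.63, limma adjusted p = 0.021) were lower. The red-cell list also holds miR-486, and the sum of its 3 miRNAs was not lower on rice straw. That sum ranged from 1202 to 3985 CPM on rice straw (median 2496) and from 1070 to 2938 CPM on corn stover (median 1732). All these marker values are on the deposited CPM, with the 4 libraries of under 3000000 reads included, and are not given for the other scalings. On that scale 25.1% of 323 miRNAs were called lower and 1.55% higher, and the median of all was -0.63. Single values of miR-145 and miR-126-5p are not given. The part of these markers in the member values was not tested.

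Among cows of the same tissue and diet the members varied together in some pairs. Over the 15 pairs of members in each of 5 tissues, with diet means removed and 18 samples per tissue, 14 of 75 correlations passed by Pearson's r (permutation test, Benjamini-Hochberg adjusted p under 0.05). The share of all pairs of miRNAs that would pass was not computed, so this count shows nothing particular to the members. MiR-150 and miR-142-5p correlated in duodenum (Pearson r = 0.88, permutation adjusted p = 0.00075, Spearman rho = 0.78, adjusted p = 0.010, r = 0.78 without the 2 samples farthest from the median) and in rumen (r = 0.75, permutation adjusted p = 0.0044, rho = 0.66, adjusted p = 0.046, r = 0.68 without 2). In liver miR-223 and miR-150 correlated most closely (r = 0.88, permutation adjusted p = 0.00075, rho = 0.86, adjusted p = 0.0015, r = 0.75 without 2).

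The miR-146 paralogs correlated in duodenum (r = 0.70, permutation adjusted p = 0.0078, rho = 0.63, adjusted p = 0.046, r = 0.56 without 2), jejunum (r = 0.73, permutation adjusted p = 0.0061, rho = 0.63, adjusted p = 0.046, r = 0.63 without 2) and liver (r = 0.65, permutation adjusted p = 0.019, rho = 0.64, adjusted p = 0.046, r = 0.51 without 2). Their r in rumen was 0.22 (permutation adjusted p = 0.56, rho = 0.27, adjusted p = 0.46, r = 0.17 without 2). By Pearson's r the pairs past the threshold in the negative direction were both in liver, miR-146b with miR-223 (r = -0.67, permutation adjusted p = 0.015, rho = -0.55, adjusted p = 0.086, r = -0.45 without 2) and with miR-150 (r = -0.61, permutation adjusted p = 0.046, rho = -0.46, adjusted p = 0.15, r = -0.48 without 2), and neither passed by Spearman's rho. In jejunum miR-146b and miR-223 passed by rho in the same direction but not by r (r = -0.52, permutation adjusted p = 0.10, rho = -0.64, adjusted p = 0.046, r = -0.49 without 2). The values of a pair share a library and its depth, and CPM of the same library are parts of one total.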

How the data were processed

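Small RNA libraries (TruSeq, 50 bp single reads) had been made from total RNA of about 100 mg of tissue. The authors filtered out low-quality reads with CASAVA 1.8, aligned the rest to miRBase 22 precursors with sRNAbench (seed of 20 nt, 2 mismatches, up to 10 mappings, reads of at least 15 nt) and deposited CPM, that is, reads per 1000000 reads mapped to annotated miRNAs, 1 table per sample. The genome build is not given in the sources used here. No miRNA sequences were used here.

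Values were analysed as log2(CPM + 1), so fold changes of low miRNAs are understated. Tests took miRNAs that were listed in all samples of the fit and exceeded 1 CPM in over 50% of a tissue's samples. They were made with limma 3.58.1 in R 4.3.3 (lmFit, eBayes with trend), and p-values were Benjamini-Hochberg adjusted over all miRNAs tested, with a threshold of 0.05. Diets were fitted within the 18 samples of a tissue, with an F test and 3 contrasts. Tissue pairs, and the interactions of tissue and diet, were fitted in 36 samples, as means over diets. Group sums and correlations were computed in Python 3.11.15 with pandas 2.3.3 and scipy 1.17.1 (100000 permutations, two-sided). The scripts were tested on simulated data.

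Library totals were inferred from the CPM step of 1 read (tolerance 0.05 reads). No 2 samples held identical values. Replicates are separate samples by the labels, which do not say whether a replicate number marks a cow. The deposited CPM of 90 samples were all used, and no batch is given in the labels. The members, the list of other leukocyte miRNAs and the marker lists were chosen with earlier results of these data known. Named miRNAs were the 6 members, at most 4 of the other leukocyte miRNAs per comparison, markers of other cell types, and for each member the 3 miRNAs with the highest correlation over the 90 samples. Alternatives were other pseudocounts, filters and scalings, a replicate block, summed miR-146 paralogs, 1 fit of all tissues, and leaving out samples.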

Additional observations from a re-analysis of the deposited data

Results flagged for a closer look

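In 21 of 90 groups of 6 samples (6 miRNAs in 15 groups of tissue and diet) the highest or lowest sample stood far from the others, the gap to the nearest sample, as a share of the range, exceeding Dixon's 95% critical value. Chance gives about 1 group in 20 if values are normally distributed. The gaps were taken on CPM, not on the log2 scale, and the miRNAs of a group share libraries. The 21 groups are therefore not a fair count against that rate. None was a group of miR-146a. These values are given without an explanation.

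For miR-146b, rumen corn stover replicate 6 had 1230 CPM (next 700.0), jejunum rice straw replicate 2 had 1328 CPM (next 526), jejunum corn stover replicate 3 had 557 CPM (next 275), liver corn stover replicate 5 had 439 CPM (next 85.1) and mammary gland corn stover replicate 3 had 531 CPM (next 235).

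For miR-155, rumen alfalfa hay replicate 2 had 484 CPM (next 220), duodenum corn stover replicate 6 had 1609 CPM (next 725), liver rice straw replicate 1 had 179 CPM (next 119), mammary gland rice straw replicate 3 had 431 CPM (next 221) and mammary gland corn stover replicate 3 had 238 CPM (next 158).

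For miR-223, rumen alfalfa hay replicate 3 had 105 CPM (next 36.2), rumen corn stover replicate 6 had 196 CPM (next 60.7), liver alfalfa hay replicate 1 had 272 CPM (next 126), mammary gland alfalfa hay replicate 2 had 72.6 CPM (next 35.5) and mammary gland corn stover replicate 3 had 158 CPM (next 53.8).

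For miR-150, duodenum alfalfa hay replicate 4 had 1979 CPM (next 1260), duodenum corn stover replicate 6 had 3897 CPM (next 1820), liver alfalfa hay replicate 1 had 654 CPM (next 364) and mammary gland rice straw replicate 4 had 511 CPM (next 199). For miR-142-5p the samples that stood apart were low, jejunum rice straw replicate 5 with 16733 CPM (next 23449) and jejunum alfalfa hay replicate 3 with 15660 CPM (next 23480). Mammary gland corn stover replicate 3 stood out for 3 miRNAs (miR-146b, miR-155 and miR-223), and duodenum corn stover replicate 6, rumen corn stover replicate 6 and liver alfalfa hay replicate 1 for a pair of miRNAs each.

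The difference between jejunum and duodenum varied with diet for miR-146a (interaction, limma adjusted p = 0.0014) and miR-146b (interaction, limma adjusted p = 0.010), jejunum being lower on corn stover by log2 fold changes of -0.91 and -1.52.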

How the results depend on the processing

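The number of members called over the 3 diets in rumen, 1, became 0 with upper-quartile and 0 with TMM scaling. In jejunum 2 became 1 with TMM scaling and 1 with the replicate number as a block. Within a tissue this block joins same-numbered samples of different diets, which are different cows, so it stands for no known pairing. In mammary gland 0 became 2 with upper-quartile scaling, 2 with TMM scaling, 3 with the replicate block and 2 without the 4 libraries of under 3000000 reads, the last chosen after seeing the data. Between jejunum and duodenum 1 became 2 with TMM scaling, miR-150 being added. For the interaction of diet with rumen and liver 0 became 1 with upper-quartile scaling and 1 with the replicate block, which between tissues joins samples of the same diet and number. The cause was not tested. In mammary gland against liver miR-146b was 1.91 and the sum of both paralogs -0.58, a sign set by miR-146a (-1.40), the larger share of the sum, so that the sum does not bear on miR-146b alone.

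Leaving out 1 library at a time gave 0 to 2 members in rumen, 1 to 4 in jejunum, 0 to 2 in mammary gland, 0 to 0 in duodenum and in liver, 0 to 3 calls over the pairwise diets of rumen, 0 to 0 over those of liver, and 1 to 2 members between jejunum and duodenum. The tissue pairs held 49 calls of 60, and 48 without the liver library holding miR-205, also chosen after seeing the data. Of 70 called results of single members, 10 were lost with TMM scaling, 11 with upper-quartile scaling, 2 with a pseudocount of 0.1 CPM and 3 with the replicate block, and 0 with a pseudocount of 5 CPM, without the filter or with a mean of at least 10 CPM. The calls lost with the replicate block were miR-150 in mammary gland against liver (limma adjusted p = 0.062) and miR-146b in jejunum, over the 3 diets (0.056) and for rice straw against corn stover (0.057). The losses of miR-146b come from the block that joins different cows, so they do not bear on pairing. The labels do not tie a number to a cow. Deviations of same-numbered samples correlated with a median r of 0.24 between duodenum and jejunum, where 14 of 18 were over 0.1 and 13 of 18 matched their own number best. Between other tissues the median was at most 0.14. Same-numbered rumen samples of different diets, which are different cows, had a median r of 0.20, with 10 of 18 over 0.1. The small intestine values are thus at most a hint of pairing, from the data and not the design. The count model on reads was not run, because the files hold CPM and no counts. Depth limits mammary gland most, where 3 reads were worth up to 3.20 CPM.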

Other observations

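Over the 90 samples, with the mean of each tissue and diet removed, the miRNA closest to miR-142-5p among 283 compared was miR-142-3p (r = 0.86), its partner from the same hairpin, followed by miR-301a (r = 0.83) and miR-16b (r = 0.81). MiR-150 was closest to miR-342 (r = 0.68), miR-2484 (r = 0.62) and miR-28 (r = 0.61), and miR-155 to miR-221 (r = 0.63), miR-363 (r = 0.62) and miR-142-3p (r = 0.59). MiR-146a was closest to miR-6524 (r = 0.71), miR-7 (r = 0.67) and miR-374a (r = 0.67), whereas its r with miR-146b was 0.48. MiR-146b was closest to miR-24-3p (r = 0.57), miR-34a (r = 0.51) and miR-7 (r = 0.50), and miR-223, with the weakest partners, to miR-454 (r = 0.49), miR-425-5p (r = 0.48) and miR-301a (r = 0.45). These values are descriptions without a test, since miRNAs of the same library share its depth and its total.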
